A study of Mus musculus with 58 samples.

Results

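The change in gene expression in quadriceps muscle of line 20b mice was set against the change in Clcn1-null mice, probe set by probe set. The members were the probe sets of the 430A and 430B arrays that passed a filter on low signal in both comparisons, 22734 of 45037 in all. Each gene was then read from 1 probe set, which gave 11988 of the 18193 genes named on the arrays. In experiment 1, at 6 months of age, 6 line 20b mice, which carry a transgene that expresses expanded CUG repeat RNA (CUGexp) on the FVB background, were compared with 6 FVB wild-type mice. In experiment 2, at 3 months of age, 3 Clcn1-null mice, a myotonic knockout on the BALB background, were compared with 3 BALB wild-type mice (Clcn1_WT). All 18 mice were male and untreated, and the 2 comparisons share no mouse. Strain, age, experiment and the cause of the myotonia differ together between the 2 comparisons, so their parts in any difference between the effects cannot be told apart. Line 20b is a single transgenic line, and the kind of Clcn1 mutation is not given in the sources used here.

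Clcn1 encodes the chloride channel of the muscle fibre membrane, which steadies the resting potential after each action potential. When it is lost, fibres fire in runs after a stimulus, which is myotonia. In myotonic dystrophy, expanded CUG RNA collects Muscleblind-like (MBNL) splicing factors in nuclear foci, Clcn1 transcripts are then spliced to forms that are broken down or encode no working channel, and mice that express such RNA are myotonic as well. In these lines the repeat lies in a human skeletal actin transgene, so the RNA is made in skeletal muscle. Both models are thus myotonic, and the CUG repeat RNA is present in line 20b alone. The comparison asks which changes the 2 models share and which they do not.

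An array level is given below as the log2 of the deposited intensity of a probe set, and a change as a difference of group means on that log2 scale with its standard error (SE). A probe set was called when its Benjamini-Hochberg adjusted p from limma was under 0.05, with p-values adjusted over all probe sets tested in that comparison. The arrays of the 2 experiments were normalised apart, so levels are compared only within an experiment. Nothing in the labels says that mice of a group came from separate litters, and p-values measure the spread between these mice.

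Some mice stood apart from their group. The Clcn1_null mouse 3 correlated at 0.945 and 0.95 with the other Clcn1-null mice, which correlated at 0.986 with each other, and it lay over 1 log2 unit below both of them at 2114 of 22734 probe sets, against 54 to 86 for each other mouse of experiment 2. FVB wild-type mice 1 and 2 correlated at 0.99 with each other and at 0.981 to 0.986 with the other wild types. Their mean log2 level over 19 adipocyte markers was 12.7 and 13.11, against 10.68 to 11.18 in the other 4 wild types and 10.08 to 10.72 in line 20b, and their mean over 21 slow fibre genes was 11.35 and 10.15, against 12.33 to 13.19. The 12 skeletal muscle identity genes had a mean level between 15.57 and 16.25 in every mouse. In whole muscle, fewer cells of a type and less RNA per cell cannot be told apart.

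**Figure D1:**
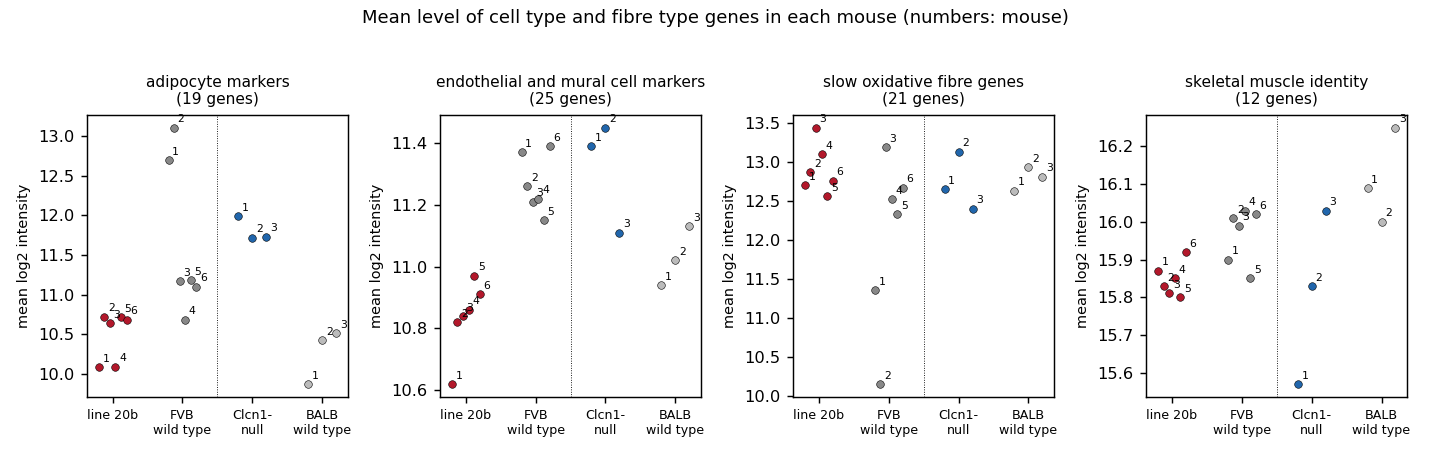
Mean log2 intensity of each cell type or fibre type list (vertical axis) in each of the 18 mice, 1 panel per list and 1 numbered point per mouse, with the 2 experiments divided by a dotted line. FVB wild-type mice 1 and 2 lie highest for adipocyte markers and lowest for slow fibre genes within experiment 1, and all 3 Clcn1-null mice lie above all 3 BALB wild types for adipocyte markers.

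Clcn1 itself was lower in both models. In line 20b its level ran from 11.17 to 11.53 with a median of 11.32, and in FVB wild type from 12.02 to 12.62 with a median of 12.29. No line 20b mouse reached the lowest wild type, and the change was -0.95 (SE 0.10; limma, Benjamini-Hochberg adjusted p = 3.41e-05). In Clcn1-null mice the levels were 9.30, 9.54 and 9.39, against 10.96, 10.25 and 11.27 in BALB wild type. The groups did not overlap, and the change of -1.42 (SE 0.28) had a limma adjusted p of 0.0507, just outside the threshold. Whether this probe set lies in a part of the transcript that the mutation removes is not known here, so it does not check the genotype. Acta1, the skeletal muscle actin, was not called in either model, with changes of -0.08 (SE 0.06; limma adjusted p = 0.444) and 0.04 (SE 0.19; limma adjusted p = 0.922).

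Of the 22734 probe sets, 1745 were higher in line 20b (7.68%) and 2351 lower (10.3%), and 415 were higher in Clcn1-null (1.83%) and 636 lower (2.8%). Both models called 462, of which 361 (78.1%) moved the same way. They were 79 probe sets higher in both (0.347%) and 282 lower in both (1.24%). The other 101 moved in opposite directions: 60 were higher in line 20b and lower in Clcn1-null (0.264%), and 41 were lower in line 20b and higher in Clcn1-null (0.18%). The shared decreases were 12% of all line 20b decreases and 44.3% of all Clcn1-null decreases, and the shared increases were 4.53% of line 20b increases and 19% of Clcn1-null increases.

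Across all 22734 probe sets the 2 effects had a Pearson correlation of 0.162 (Spearman 0.15), with a jackknife SE over mice of 0.0478. It was 0.303 over the 4096 probe sets called in line 20b and 0.208 over the 1051 called in Clcn1-null. Probe sets are not independent, and they share the mice of each comparison. The median SE of a change was 0.1 in line 20b and 0.2 in Clcn1-null, so a Clcn1-null change typically had to be larger to be called. Changes that both models called were mostly larger in Clcn1-null, but the calling selects for this, so their sizes do not rank the models. The size of the change was larger in Clcn1-null for 61 of 79 probe sets higher in both and 270 of 282 lower in both. It was also larger there for 53 of the 60 and 37 of the 41 probe sets of opposite direction. The median changes were 0.73 in line 20b and 1.26 in Clcn1-null for those higher in both, and -0.57 and -1.43 for those lower in both.

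A direct test of the difference between the effects, in 1 limma model over all 4 groups, called 3531 probe sets (15.5%). That model uses 1 spread for both experiments, although experiment 2 varied more. With the spread of each experiment kept apart, 1941 were called (8.54%), of which 1844 were among the 3531. This second test set the difference between the 2 limma changes against their combined SE in a t test for unequal spreads (Welch). A limma adjusted p of a difference below comes from it, unless the model with 1 spread is named. It is the base of the statements below that effects differed. The choice of the largest differences and the counts by processing setting use the model with 1 spread. Among these 1941, the line 20b change was the more positive for 1004 and the more negative for 937. Of the probe sets that both models called in the same direction, the sizes differed for 28 of 79 higher in both and 136 of 282 lower in both, and for the rest a difference in size was not detectable with these mice. These counts carry the same selection by calls. For the 60 and 41 probe sets of opposite direction, the calls already set the effects apart. All of them were called in this test, which adds no support.

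The Clcn1-null calls depended on single mice. The whole Clcn1-null comparison called 1091 probe sets. It called 2286 without Clcn1_null mouse 3, 472 without mouse 1 and 345 without mouse 2, and 34, 300 and 40 without BALB wild-type mouse 1, 2 and 3. The 79 probe sets higher in both became 192 without Clcn1_null mouse 3 and 3 without BALB wild-type mouse 1, and the 282 lower in both became 454 and 18. The 60 and the 41 of opposite direction became 96 and 101 without Clcn1_null mouse 3 and 0 and 0 without BALB wild-type mouse 1. A fixed rule picked 151 genes to name, of which 102 are described here. Of the 151, 103 were called in Clcn1-null, of which 100 were called without Clcn1_null mouse 3 and 10 were called whichever mouse was left out. Those 10 were Gdap1, Hacd2, Lmod2, Mettl11b, Mss51, Neto2, Slc38a4, Smox, Actn2 and Atp2a2. Of the 151, 117 were called in line 20b, of which 98 were called whichever mouse was left out and 97 without FVB wild-type mice 1 and 2.

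**Figure D2:**
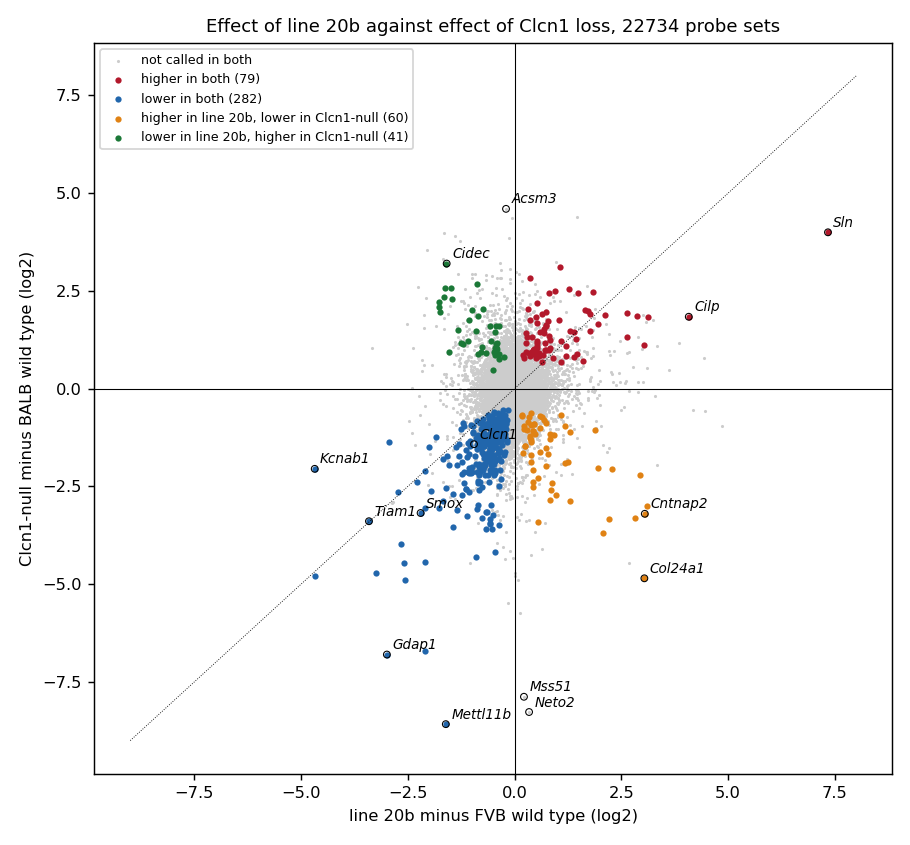
Change in line 20b (horizontal axis, log2) against change in Clcn1-null (vertical axis, log2) for 22734 probe sets, with those called in both models coloured by direction, some genes circled and named, and a dotted line where the changes are equal. The same-direction quadrants hold 79 and 282 called probe sets and the opposite quadrants 60 and 41.

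Per gene, taking its probe set of highest mean signal, 48 of 11988 genes were higher in both models (0.4%) and 154 lower in both (1.28%). Another 44 were higher in line 20b and lower in Clcn1-null (0.367%), and 25 were lower in line 20b and higher in Clcn1-null (0.209%).

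Genes higher in both models were led by Sln, which encodes sarcolipin, a small membrane protein that inhibits the sarcoplasmic reticulum calcium pump. Its level in line 20b ran from 12.95 to 13.94 with a median of 13.34, and in FVB wild type from 2.18 to 7.94 with a median of 6.60. In Clcn1-null it was 13.33, 12.61 and 12.44, against 8.37, 9.48 and 8.55 in BALB wild type. The groups stood apart in both experiments. Sln rose by 7.34 (SE 0.77; limma adjusted p = 3.91e-05) in line 20b and by 4.00 (SE 0.38; limma adjusted p = 0.00882) in Clcn1-null. These changes differed by 3.34 (SE 0.86; adjusted p = 0.0224 for the limma difference with separate spreads, and 0.0662, not called, in the model with 1 spread), and the line 20b change was 6.23 without FVB wild-type mice 1 and 2. The FVB wild-type levels reached below a log2 level of 5, the floor of the filter, where array signal says little about the size of a fold change.

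Cilp, which encodes the matrix protein cartilage intermediate layer protein, rose more in line 20b. Its levels ran from 12.38 to 13.39 (median 12.75) in line 20b and from 8.28 to 9.34 (median 8.66) in FVB wild type, and were 12.65, 12.38 and 11.91 in Clcn1-null against 10.12, 10.71 and 10.59. The groups did not overlap. The changes were 4.08 (SE 0.18) and 1.84 (SE 0.25), with limma adjusted p-values of 3.85e-08 and 0.0216, and they differed by 2.24 (SE 0.31; limma adjusted p = 0.00101).

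Lmod2, encoding leiomodin 2, which nucleates and lengthens sarcomeric actin filaments, rose more in Clcn1-null. Line 20b ran from 14.55 to 15.12 (median 14.98) and FVB wild type from 12.76 to 14.09 (median 13.47), while Clcn1-null mice had 13.46, 13.44 and 13.30 against 10.93, 11.18 and 10.74. No mouse of a mutant group fell within its control group. The changes were 1.48 (SE 0.18; limma adjusted p = 0.000135) and 2.45 (SE 0.15; limma adjusted p = 0.0038), a difference of -0.97 (SE 0.24; limma adjusted p = 0.016).

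For the other 9 genes named here, the test of the difference between the 2 rises made no call. Hspb7, a small heat shock protein of striated muscle, ran from 13.95 to 14.60 (median 14.11) in line 20b and from 11.55 to 13.59 (median 12.28) in FVB wild type, and was 14.94, 15.28 and 14.66 in Clcn1-null against 12.99, 13.41 and 12.73. The mutant groups lay wholly above their controls. It rose by 1.76 (SE 0.27) and 1.92 (SE 0.23), with limma adjusted p-values of 0.000688 and 0.0161, and 2 further probe sets of Hspb7 were also higher in both. The difference between the changes was -0.16 (SE 0.36). Lmcd1, a LIM domain protein linked to calcineurin signalling, ran from 12.82 to 14.45 (median 12.98) in line 20b and from 10.89 to 13.25 (median 11.35) in FVB wild type. These groups overlapped, and without FVB wild-type mice 1 and 2 the line 20b change went from 1.65 to 1.31 with a limma adjusted p of 0.0663. In Clcn1-null Lmcd1 was 13.88, 14.36 and 14.14 against 11.83, 12.27 and 12.21, without overlap, a rise of 2.03 (SE 0.19; limma adjusted p = 0.00809).

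Smtnl1, a smoothelin-like protein of muscle, rose by 1.77 (SE 0.18) in line 20b and 1.48 (SE 0.20) in Clcn1-null. S100a4, a calcium-binding protein, rose by 2.63 (SE 0.23) and 1.94 (SE 0.19), and Mustn1, a nuclear protein of regenerating muscle and skeleton, by 2.88 (SE 0.32) and 1.86 (SE 0.36). Arpp21, a cyclic AMP-regulated phosphoprotein, rose by 1.84 (SE 0.17) and 2.46 (SE 0.24), and the ubiquitin ligase adaptor Spsb1 by 1.29 (SE 0.20) and 1.48 (SE 0.19). Meg3, a long noncoding RNA, rose by 1.38 (SE 0.22) and 1.45 (SE 0.19), and the antisense transcript Atcayos by 1.45 (SE 0.20) and 1.26 (SE 0.20). For these 7 genes the limma adjusted p-values lay between 1.07e-05 and 0.0493, and the mutant and control groups did not overlap in either experiment. Second probe sets of Spsb1 (0.30 and 0.13) and Atcayos (0.13 and 0.38) were called in neither model, so the probe sets of these 2 genes disagreed. Meg3 was read by 6 further probe sets, all of them called higher in line 20b and 2 of them also in Clcn1-null. Each of the 6 had the larger change in line 20b, from 0.41 to 3.11 there and from 0.12 to 1.84 in Clcn1-null. The 2 called in both read 3.11 and 2.63 in line 20b against 1.84 and 1.32. The near-equal changes of Meg3 given above thus hold only for the probe set used.

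**Figure D3:**
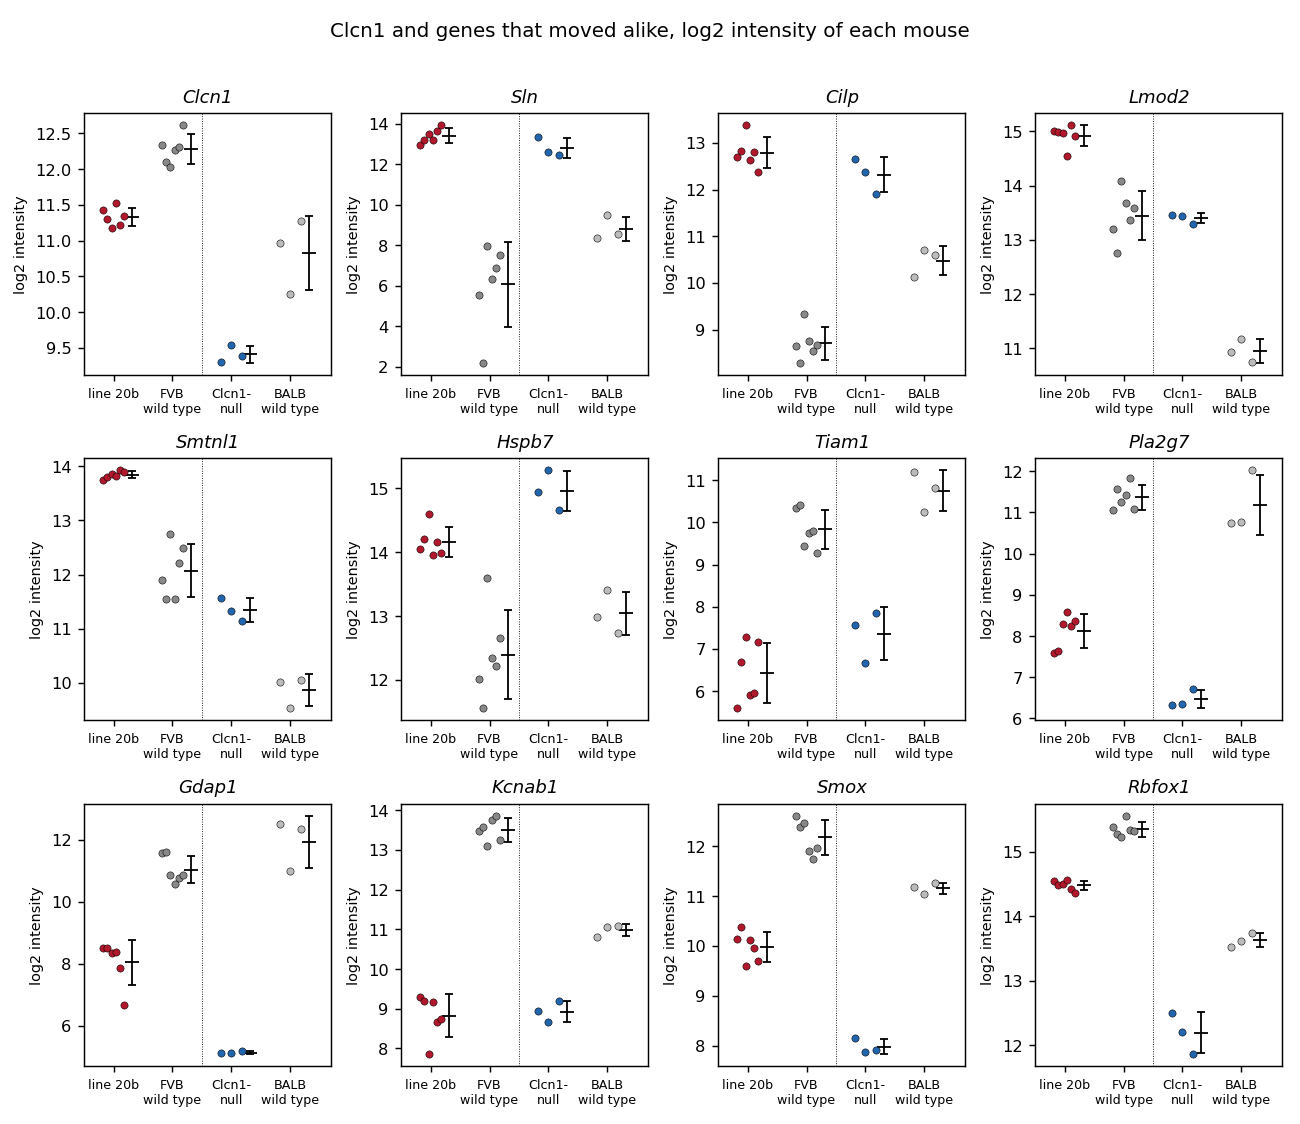
Log2 intensity in each mouse (points) with the group mean and SD (bars) for Clcn1 and genes that moved the same way in both models, 1 panel per gene, the 4 groups along the horizontal axis and the experiments divided by a dotted line. Each mutant group lies on the same side of its own control in both experiments.

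Among the genes lower in both, Smox was called in each model whichever mouse was left out. It encodes spermine oxidase, an enzyme of polyamine breakdown. Its level ran from 9.60 to 10.38 (median 10.04) in line 20b and from 11.75 to 12.61 (median 12.17) in FVB wild type, and was 8.15, 7.88 and 7.91 in Clcn1-null against 11.18, 11.04 and 11.25. Neither pair of groups overlapped. Smox fell by 2.20 (SE 0.17; limma adjusted p = 3.84e-06) in line 20b and by 3.18 (SE 0.14; limma adjusted p = 0.00193) in Clcn1-null, a difference of 0.98 (SE 0.22; limma adjusted p = 0.00951).

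Gdap1, a protein of the outer mitochondrial membrane, fell far more in Clcn1-null. Line 20b ran from 6.67 to 8.52 (median 8.36) and FVB wild type from 10.58 to 11.60 (median 10.87), while Clcn1-null mice had 5.11, 5.12 and 5.19 against 12.50, 10.98 and 12.34. The groups lay wide apart in both experiments. The changes were -2.99 (SE 0.31; limma adjusted p = 3.41e-05) and -6.80 (SE 0.41; limma adjusted p = 0.00369), and they differed by 3.81 (SE 0.51; limma adjusted p = 0.000676). A weaker probe set of Gdap1 was not called in either model (0.06 and -0.71).

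Kcnab1 ran the other way. It encodes a beta subunit of voltage-gated potassium channels. Its level ran from 7.86 to 9.30 (median 8.96) in line 20b and from 13.09 to 13.86 (median 13.53) in FVB wild type, and was 8.93, 8.66 and 9.19 in Clcn1-null against 10.80, 11.05 and 11.08. All mutant mice lay below their controls. Kcnab1 fell by 4.68 (SE 0.23; limma adjusted p = 9.02e-08) in line 20b and by 2.05 (SE 0.18; limma adjusted p = 0.00776) in Clcn1-null, a difference of -2.63 (SE 0.29; limma adjusted p = 3.13e-05).

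Tiam1, an activator of the small GTPase Rac, was lower in both as well. It ran from 5.59 to 7.28 (median 6.32) in line 20b and from 9.27 to 10.40 (median 9.77) in FVB wild type, and was 7.56, 6.66 and 7.86 in Clcn1-null against 11.20, 10.24 and 10.81. The groups did not overlap. It fell by 3.41 (SE 0.31; limma adjusted p = 1.42e-05) and by 3.39 (SE 0.39; limma adjusted p = 0.014), and the difference of -0.02 had an SE of 0.50.

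Actc1, the cardiac actin that skeletal muscle makes mainly before birth and in repair, also fell in both. It ran from 9.67 to 10.06 (median 9.91) in line 20b and from 11.78 to 13.16 (median 11.92) in FVB wild type, and was 10.39, 9.87 and 11.44 in Clcn1-null against 13.02, 13.31 and 12.51. The groups stood apart. The changes were -2.29 (SE 0.20; limma adjusted p = 1.2e-05) and -2.38 (SE 0.44; limma adjusted p = 0.0447). Htra1, a secreted serine protease, fell by 2.10 (SE 0.17) and by 2.12 (SE 0.18), and Hmga2-ps1, annotated as a pseudogene that may share signal with its parent gene, changed by -2.72 (SE 0.30) and -2.65 (SE 0.29). For these 3 genes the test of the difference made no call (limma adjusted p from 0.93 to 0.978).

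Of the other 5 genes named among those lower in both, Pla2g7, Dkk3 and Igfbp5 had the larger fitted change in Clcn1-null at the probe set used. Cdh4 and Sytl2 had levels under the floor, so their changes cannot be ranked by size. Pla2g7, a lipoprotein-associated phospholipase, changed by -3.24 (SE 0.19) and -4.71 (SE 0.38). Dkk3, of the Dickkopf family of secreted proteins, changed by -2.58 (SE 0.24) and -4.47 (SE 0.50), and its second probe set by -4.68 and -4.80. Igfbp5, which binds insulin-like growth factors, changed by -1.78 (SE 0.15) and -3.05 (SE 0.46), but its second probe set gave -1.59, called, and -0.13, not called. Cdh4, a cadherin, changed by -2.10 (SE 0.21) and by a fitted -6.71 (SE 0.94), but 2 of its 3 Clcn1-null levels (7.46, 4.22 and 4.24) lay under the floor, so the size of its Clcn1-null change is not known, and its second probe set gave -1.50, called, and 0.28, not called. Sytl2, a Rab27 effector, lay under the floor in every line 20b mouse and was at least 2.18-fold lower there than in wild type, and it fell by 3.06 (SE 0.33) in Clcn1-null. The limma adjusted p-values of these 5 genes lay between 4.1e-07 and 0.027. Apart from Cdh4, none was called in the test of the difference (limma adjusted p from 0.0658 to 0.275), and the call of Cdh4 (limma adjusted p = 0.0348) rests on the levels under the floor.

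Genes higher in line 20b and lower in Clcn1-null included Cntnap2, which encodes Caspr2, a protein that clusters potassium channels on axons. In line 20b its level ran from 11.79 to 12.36 (median 12.04), against 8.06 to 9.56 (median 9.08) in FVB wild type. In Clcn1-null it was 7.93, 6.29 and 6.63, against 10, 10.48 and 9.97. No groups overlapped. It rose by 3.05 (SE 0.23; limma adjusted p = 2.68e-06) in line 20b and fell by 3.20 (SE 0.45; limma adjusted p = 0.0223) in Clcn1-null. A second probe set of Cntnap2 read -0.16 and 0.10, neither called, so its probe sets disagreed.

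Kcnc4, a subunit of fast delayed-rectifier potassium channels, also rose in line 20b and fell in Clcn1-null. It ran from 12.34 to 12.69 (median 12.52) in line 20b and from 11.04 to 11.54 (median 11.28) in FVB wild type, and was 10.48, 10.67 and 10.59 in Clcn1-null against 12.73, 12.22 and 12.42. The groups lay apart on opposite sides. It rose by 1.24 (SE 0.08; limma adjusted p = 1.12e-06) and fell by 1.88 (SE 0.17; limma adjusted p = 0.00783). Its second probe set gave 0.76, called, and -0.41, not called.

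Mybph, a myosin-binding protein of the thick filament, ran from 12.88 to 13.92 (median 13.08) in line 20b and from 10.29 to 11.79 (median 10.76) in FVB wild type. In Clcn1-null it was 10.48, 10.26 and 11.15, against 12.92, 12.29 and 12.83. The groups did not overlap. It rose by 2.28 (SE 0.25; limma adjusted p = 4.86e-05) and fell by 2.05 (SE 0.29; limma adjusted p = 0.0233).

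Col24a1, a fibrillar collagen chain, rose by 3.04 (SE 0.37) and fell by 4.85 (SE 0.49), and Amhr2, the anti-Müllerian hormone receptor, rose by 2.22 (SE 0.29) and fell by 3.34 (SE 0.44). Krt222, a keratin-like protein, rose by 1.96 (SE 0.18) and fell by 2.02 (SE 0.35), and Arhgap44, a GTPase-activating protein, rose by 1.19 (SE 0.14) and fell by 1.89 (SE 0.18). A second probe set of Krt222 gave the same pair of calls, and one of Amhr2 gave 2.67, called, and -4.45, not called (limma adjusted p = 0.053). Of the Col24a1 levels, 2 of 6 in FVB wild type and 1 of 3 in Clcn1-null lay under the floor. Fer1l6, of the ferlin family, rose by 1.30 (SE 0.23) and fell by 2.87 (SE 0.47), and Lrp2bp rose by 2.83 (SE 0.14) and fell by 3.31 (SE 0.43), though a second probe set of Lrp2bp read 0.06 and -0.16. The limma adjusted p-values of these 6 genes lay between 1.49e-07 and 0.0391, and no pair of groups overlapped.

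Genes lower in line 20b and higher in Clcn1-null included genes of fat cells. Of the 25, 5 stand in the adipocyte marker list, which holds 18 of all 11988 genes tested. These 5 include the amino acid carrier Slc1a5, and the list was chosen with earlier results of these data known. Adipoq encodes adiponectin, a hormone that fat cells secrete. Its level ran from 10.05 to 10.94 (median 10.37) in line 20b and from 11.02 to 13.96 (median 11.59) in FVB wild type, and was 15.09, 14.71 and 15.06 in Clcn1-null against 12.85, 13.03 and 13.07. Line 20b lay just below the lowest wild type, and Clcn1-null well above its controls. The changes were -1.75 (SE 0.47; limma adjusted p = 0.0226) and 1.97 (SE 0.14; limma adjusted p = 0.00626), and without FVB wild-type mice 1 and 2, the mice high in adipocyte markers, the line 20b change was -0.97 (limma adjusted p = 0.00691).

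Cidec, a lipid droplet protein, ran from 9.50 to 10.31 (median 10.04) in line 20b and from 10.57 to 13.45 (median 11.03) in FVB wild type, and was 12.24, 11.70 and 11.20 in Clcn1-null against 8.10, 8.78 and 8.67. The groups did not overlap. It fell by 1.59 (SE 0.43; limma adjusted p = 0.0236) and rose by 3.20 (SE 0.32; limma adjusted p = 0.01). The line 20b change was -0.89 (limma adjusted p = 0.00518) without FVB wild-type mice 1 and 2, and without mouse 1 alone it was not called (limma adjusted p = 0.0525).

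Cebpa, a transcription factor of fat cells and liver, changed by -1.48 (SE 0.43) and 2.58 (SE 0.25), and by -0.74 in line 20b without FVB wild-type mice 1 and 2. Cdo1, cysteine dioxygenase, changed by -1.77 (SE 0.39) and 2.10 (SE 0.36), and by -1.23 in line 20b without those mice. Its Clcn1-null call was lost without Clcn1_null mouse 3 (limma adjusted p = 0.0512). Rbp4, the carrier of retinol in blood, changed by -1.47 (SE 0.39) and 2.29 (SE 0.30), and by -0.87 without those mice. The amino acid carrier Slc1a5 changed by -1.32 (SE 0.38) and 1.51 (SE 0.24), and by -0.66 without those mice. The mitochondrial enzyme Tst changed by -1.26 (SE 0.21) and 1.16 (SE 0.15), and by -1.03 without those mice. The interferon-inducible Ifi27l2a changed by -1.76 (SE 0.53) and 2.22 (SE 0.36), and by -0.88 without those mice. The limma adjusted p-values of these 6 genes lay between 0.00141 and 0.0381 over all mice. The line 20b calls of Cebpa, Slc1a5 and Ifi27l2a were lost when any of several single mice was left out (limma adjusted p up to 0.0632, 0.0653 and 0.0767).

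Cyp2e1, a cytochrome P450, changed by -1.62 (SE 0.51; limma adjusted p = 0.0479) and 2.57 (SE 0.34; limma adjusted p = 0.0194), and its line 20b call was lost without those mice (-1.09; limma adjusted p = 0.197). Snx10, a sorting nexin, changed by -1.20 (SE 0.31) and 1.15 (SE 0.11), and a second probe set read -0.14 and 0.03. Of all 41 probe sets in this class, 29 were again in it without FVB wild-type mice 1 and 2, when the class held 38.

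**Figure D4:**
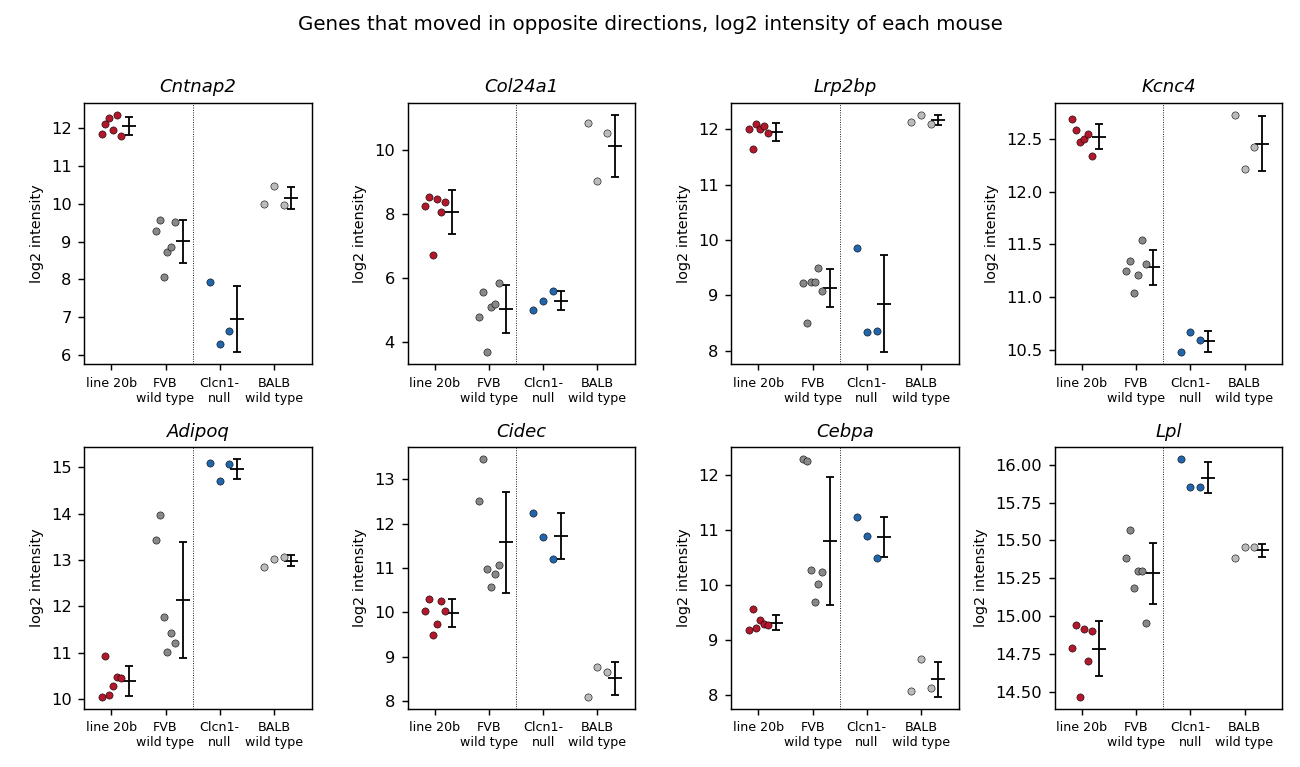
Log2 intensity in each mouse (points) with the group mean and SD (bars) for genes that moved in opposite directions, 1 panel per gene, the 4 groups along the horizontal axis and the experiments divided by a dotted line. For the genes of fat cells the line 20b mice lie below FVB wild type, with FVB wild-type mice 1 and 2 the highest, and the Clcn1-null mice lie above BALB wild type.

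The test of the difference between effects with separate spreads called 1144 of the 11988 genes (9.54%), and the model with 1 spread called 2084. The 8 largest differences of each sign were picked among genes called in the model with 1 spread. The 8 largest positive differences included genes whose signal in Clcn1-null was near or under the floor. Mss51, a protein of muscle mitochondria, was 7.27, 6.77 and 6.35 in Clcn1-null against 15.14, 14.04 and 14.86, and ran from 13.91 to 14.43 (median 14.38) in line 20b and from 13.87 to 14.31 (median 14.07) in FVB wild type. The Clcn1-null mice lay far below their controls, and the groups of experiment 1 overlapped. Mss51 fell by 7.88 (SE 0.36; limma adjusted p = 0.00193) in Clcn1-null, and its line 20b change of 0.22 (SE 0.10) was not called (limma adjusted p = 0.188).

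Neto2, an auxiliary subunit of kainate receptors, was 3.32, 2.52 and 1.98 in Clcn1-null against 11.19, 10.57 and 10.86, and ran from 10.08 to 10.46 (median 10.30) in line 20b against 9.63 to 10.35 (median 9.94). All Clcn1-null values lay under the floor, so Neto2 was at least 58.7-fold lower there (limma adjusted p = 0.00193), and it was not called in line 20b (0.34, SE 0.12). A second probe set of Neto2 had the reverse calls, higher in line 20b (0.72; limma adjusted p = 0.0114) and not called in Clcn1-null (-3.44; limma adjusted p = 0.182). Mettl11b, a protein N-terminal methyltransferase, was 4.84, 4.97 and 3.66 against 13.33, 12.71 and 13.17, at least 269-fold lower in Clcn1-null (limma adjusted p = 0.00193). In line 20b it ran from 10.07 to 10.90 (median 10.49) against 11.77 to 12.29 (median 12.18), and it fell by 1.61 (SE 0.13; limma adjusted p = 5.27e-06). Mettl11b moved the same way in both, by very different amounts. Smarca1, a chromatin remodelling ATPase, was 7.57, 3.80 and 3.57 in Clcn1-null against 10.93, 10.58 and 10.67, and as 2 of the 3 lay under the floor the size of its fitted change of -5.74 (SE 1.07; limma adjusted p = 0.046) is not known. It was not called without Clcn1_null mouse 3 (limma adjusted p = 0.0602).

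Among the 8 largest negative differences were genes that rose in Clcn1-null. Acsm3, a medium-chain acyl-CoA synthetase, was 12.96, 12.21 and 10.31 against 6.96, 6.92 and 7.80, a rise of 4.60 (SE 0.70; limma adjusted p = 0.028), with a line 20b change of -0.20 (SE 0.15; limma adjusted p = 0.419). Adgrg2, an adhesion G protein-coupled receptor, was 12.29, 11.22 and 10.11 against 6.15, 8.24 and 6.12, a rise of 4.37 (SE 0.78; limma adjusted p = 0.0411), with -0.07 (SE 0.15) in line 20b. Both stood apart from their controls in experiment 2 and overlapped in experiment 1. Hacd2, an enzyme of very long chain fatty acid synthesis, was 12.17, 11.88 and 11.60 against 7.31, 8.07 and 8.36, a rise of 3.97 (SE 0.31; limma adjusted p = 0.00631), and its line 20b change was -1.66 (SE 0.61; limma adjusted p = 0.0851). The fat cell genes Cidea and Lipe (hormone-sensitive lipase), and Hp (haptoglobin), rose by 3.55 (SE 0.64), 3.32 (SE 0.27) and 3.90 (SE 0.60) in Clcn1-null, and their line 20b changes of -2.06, -1.68 and -1.40 were not called (limma adjusted p from 0.0735 to 0.189). A second probe set of Lipe read 0.12 and -0.17, neither called. Asns, asparagine synthetase, had 3.79 (SE 0.74) in Clcn1-null, not called (limma adjusted p = 0.0513), and a called -1.27 (SE 0.40) in line 20b, a call lost without FVB wild-type mice 1 and 2 (limma adjusted p = 0.0679).

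Gene lists are read against the 11988 genes tested in both comparisons, of which 1048 were higher in line 20b (8.74%) and 1253 lower (10.5%), and 244 were higher in Clcn1-null (2.04%) and 374 lower (3.12%). The median change over these genes was -0.02 in line 20b and 0 in Clcn1-null. Lists are described by counts and medians, with no test of the list as a whole.

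Sarcolemmal channels and pumps set the excitability of the fibre. Of 17 tested, 6 rose and 4 fell in line 20b, and none rose and 2 fell in Clcn1-null. Besides Kcnab1 and Kcnc4, Atp1b4, a muscle protein related to the sodium pump beta subunits, rose by 3.86 (SE 0.51) in line 20b and read 1.16 (SE 0.32), not called, in Clcn1-null (limma adjusted p = 0.123), and the effects differed (limma adjusted p = 0.00939).

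Calcium handling and excitation-contraction coupling genes carry the signal from the membrane to the myofibril. Of 32 tested, 6 rose and 3 fell in line 20b, and 2 rose and 8 fell in Clcn1-null, with medians of 0.01 and -0.55. The effects differed for 13 of 32. Sln was the gene that rose in both. Casq1, the calsequestrin of fast fibres, changed by -0.22 (SE 0.06) and -1 (SE 0.12), and the kinase subunits Camk2a by -0.71 (SE 0.11) and -1.47 (SE 0.16) and Camk2g by -0.29 (SE 0.07) and -0.82 (SE 0.15). The line 20b calls of Casq1 and Camk2g were lost without FVB wild-type mice 1 and 2 (limma adjusted p = 0.0615 and 0.0901). No other probe set of Camk2a (3, from -1.29 to -0.11) or Camk2g (1, -0.56) was called in Clcn1-null. Cacng1, the gamma subunit of the muscle calcium channel, ran from 12.38 to 12.64 (median 12.59) in line 20b against 11.28 to 11.63 (median 11.45), and was 13.20, 13.15 and 13.46 in Clcn1-null against 14.01, 13.95 and 13.87. No groups overlapped, and it rose by 1.09 (SE 0.07; limma adjusted p = 1.02e-06) in line 20b and fell by 0.67 (SE 0.12; limma adjusted p = 0.0446) in Clcn1-null.

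Atp2a2, the calcium pump of slow fibres and heart, was 12.55, 12.56 and 12.42 in Clcn1-null against 14.56, 14.97 and 14.89, and ran from 12.10 to 13.28 (median 12.61) in line 20b and from 10.63 to 13.55 (median 13.15) in FVB wild type. The Clcn1-null mice lay below their controls, and the groups of experiment 1 overlapped. It fell by 2.29 (SE 0.14; limma adjusted p = 0.0038) in Clcn1-null, and 1 of its 4 other probe sets was called there too (-2.26; limma adjusted p = 0.00936), but the rest, from -0.53 to 0.08, were not. In line 20b it read 0.04 (SE 0.46) over all mice and -0.69, called (limma adjusted p = 0.045), without FVB wild-type mice 1 and 2. Rrad, a small GTPase that inhibits calcium channels, rose by 3.10 (SE 0.73) in line 20b, a call lost without those mice (limma adjusted p = 0.0599), and read 0.53 (SE 0.35) in Clcn1-null. Of its FVB wild-type levels, 2 of 6 lay under the floor.

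Slow oxidative fibre genes divided in Clcn1-null. Of 21 tested, 6 rose and none fell in line 20b, and 9 rose and 5 fell in Clcn1-null. The 5 that fell included Myh7, the slow myosin heavy chain, with 8.77, 10.06 and 6.90 against 12.48, 13.03 and 12.53, a change of -4.11 (SE 0.77; limma adjusted p = 0.0472). The slow troponins Tnni1 and Tnnc1 changed by -3.40 (SE 0.65; limma adjusted p = 0.0485) and -2.44 (SE 0.33; limma adjusted p = 0.0213). None of the 3 was called in line 20b. Among those that rose in Clcn1-null were the Z-disc proteins Myoz2 by 2.34 (SE 0.27) and Csrp3 by 1.95 (SE 0.24) and the calsequestrin Casq2 by 2.02 (SE 0.35), beside Sln, Lmcd1 and Smtnl1, which rose in both models. The list's line 20b median was 0.58 over all mice and -0.08 without FVB wild-type mice 1 and 2, with 5 higher and 1 lower.

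Fast glycolytic fibre genes, 24 tested, had 2 higher and 7 lower in line 20b and 1 higher and 4 lower in Clcn1-null. Actn2, a Z-disc alpha-actinin, was the gene of this list that rose in both, by 0.74 (SE 0.12; limma adjusted p = 0.00119) and 1.61 (SE 0.10; limma adjusted p = 0.00369), and it is made in slow fibres too. Its partner Actn3, the alpha-actinin of fast fibres, fell by 1.92 (SE 0.33; limma adjusted p = 0.0369) in Clcn1-null and read -0.13 (SE 0.05) in line 20b. Prkag3, an AMP-activated kinase subunit of fast glycolytic muscle, listed under activity signalling, was 9.09, 8.71 and 8.36 in Clcn1-null against 13.47, 12.46 and 12.76, without overlap, and it fell by 4.18 (SE 0.32; limma adjusted p = 0.00631). In line 20b it fell by 0.45 (SE 0.12), a call lost without FVB wild-type mice 1 and 2 (limma adjusted p = 0.0945). Of the 24 activity signalling genes, 4 rose and 5 fell in line 20b and 1 rose and 1 fell in Clcn1-null.

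Embryonic and regenerating muscle genes, 19 tested, had 5 higher and 1 lower in line 20b and 3 higher and 1 lower in Clcn1-null. Myh3, the embryonic myosin heavy chain, was 13.94, 13.82 and 13.36 in Clcn1-null against 10.32, 10.93 and 10.49, and ran from 8.17 to 8.56 (median 8.30) in line 20b and from 6.54 to 8.38 (median 7.03) in FVB wild type. The groups overlapped only in experiment 1. It rose by 3.13 (SE 0.23; limma adjusted p = 0.00631) in Clcn1-null and by 1.06 (SE 0.29; limma adjusted p = 0.025) in line 20b, a call lost without FVB wild-type mice 1 and 2 (limma adjusted p = 0.0933). Denervation and junction genes had 5 of 18 higher in line 20b, Ncam1 (1.14, SE 0.22, with a second probe set at 0.50, not called) and the acetylcholine receptor subunit Chrna1 (0.70, SE 0.07) among them, and none called in Clcn1-null. Immediate-early genes, which follow recent stimulation, had 4 of 19 higher in line 20b, Fos by 2.07 (SE 0.55), and none called in Clcn1-null, where Fos read -1.45 (SE 0.80; limma adjusted p = 0.396). At an unadjusted limma p under 0.05, 5 of the 18 and 4 of the 19 passed in Clcn1-null, against 2683 of all 11988 genes.

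Fatty acid uptake and oxidation genes leaned in opposite directions. Of 33 tested, none rose and 13 fell in line 20b, and 8 rose and none fell in Clcn1-null, with medians of -0.31 and 0.48. The effects differed for 14. Without FVB wild-type mice 1 and 2, 8 fell in line 20b. With each experiment's arrays shifted to a common median, 10 fell in line 20b and 4 rose in Clcn1-null. Lpl, lipoprotein lipase, ran from 14.46 to 14.94 (median 14.84) in line 20b against 14.96 to 15.57 (median 15.30), and was 16.04, 15.85 and 15.86 in Clcn1-null against 15.39, 15.46 and 15.45. No groups overlapped, and the changes were -0.50 (SE 0.10; limma adjusted p = 0.00495) and 0.48 (SE 0.08; limma adjusted p = 0.0379). Fabp4, the fatty acid binding protein of fat cells and capillaries, changed by -0.86 (SE 0.22) and 0.89 (SE 0.13), both called, and its 2 other probe sets were called lower in line 20b but not called in Clcn1-null (0.90 and 0.41). Pnpla2, the triglyceride lipase ATGL, rose by 1.79 (SE 0.12; limma adjusted p = 0.00456) in Clcn1-null and read -0.32 (SE 0.15), not called, in line 20b.

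Markers of other cell types moved with these genes. Of 18 adipocyte markers tested, 5 fell in line 20b and 9 rose in Clcn1-null, with none called the other way and medians of -1.14 and 1.77. Without FVB wild-type mice 1 and 2 the line 20b median was -0.62, with 6 lower. The summed adipocyte intensity ran from 261923 to 301464 in Clcn1-null and from 134936 to 188593 in BALB wild type, and from 102520 to 131914 in line 20b and from 114748 to 301999 in FVB wild type. No adipocyte marker was under the filter's intensity floor of 32 in all 18 mice. Several genes, Fabp4 and Lipe among them, stand in both the adipocyte and the fatty acid list. The part that the number of fat cells in the samples has in these changes was not tested.

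Of 25 endothelial and mural cell markers, none rose and 19 fell in line 20b, and 3 rose and none fell in Clcn1-null, with medians of -0.46 and 0.28. Without FVB wild-type mice 1 and 2, 14 fell in line 20b. The summed intensity ran from 82472 to 96152 in line 20b and from 104807 to 123080 in FVB wild type, and from 115653 to 130488 in Clcn1-null and from 92703 to 103085 in BALB wild type, so by the sum the groups did not overlap in either experiment. By the mean log2 level they overlapped in experiment 2, with 11.11 to 11.45 in Clcn1-null and 10.94 to 11.13 in BALB wild type. Gpihbp1, the capillary anchor of lipoprotein lipase, changed by -0.55 (SE 0.11) and 1.23 (SE 0.13), and Ramp2, a receptor partner in endothelium, by -0.43 (SE 0.09) and 1.05 (SE 0.18), all called. Macrophage markers had 1 of 21 lower in line 20b and 1 of 21 higher in Clcn1-null, Cd68 by 3.25 (SE 0.34). Fibroblast and tendon markers had 3 higher and 4 lower of 19 in line 20b and 2 higher in Clcn1-null, and Cilp was higher in both. Nerve and Schwann cell markers had 1 higher and 3 lower of 9 in line 20b and 1 higher in Clcn1-null, and Pmp22, a myelin protein, changed by -0.37 and 0.75, both called. The line 20b call of Pmp22 was lost without FVB wild-type mice 1 and 2 (limma adjusted p = 0.073), and its Clcn1-null call was lost when arrays were scaled to a common median (limma adjusted p = 0.0713). Blood cell markers had 1 of 4 lower in line 20b and none called in Clcn1-null. Markers under an intensity of 32 in all 18 mice were Mkx of tendon, Itgam of leukocytes, S100b, Cdh19, Nefl and Nefm of nerve, and Hba-a1, Hba-a2 and Ppbp of blood.

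Heat shock and protein folding genes include the small heat shock proteins that protect the sarcomere. Of 27 tested, 7 rose and none fell in line 20b, and 3 rose and 2 fell in Clcn1-null, and the 3 that rose there, Hspb7, Hspb1 and Hspb6, rose in both. Hspb1, the chaperone Hsp27 family member of muscle, ran from 13.96 to 15.20 (median 14.10) in line 20b and from 12.57 to 14.11 (median 13.12) in FVB wild type, and was 13.56, 14.14 and 13.85 in Clcn1-null against 12.57, 12.63 and 12.71. The groups overlapped in experiment 1 and stood apart in experiment 2. It rose by 1.09 (SE 0.27; limma adjusted p = 0.015) and 1.21 (SE 0.17; limma adjusted p = 0.0218), and the line 20b call was lost without FVB wild-type mice 1 and 2 (0.90; limma adjusted p = 0.0787). Hspb6 rose by 0.56 (SE 0.11) and 0.83 (SE 0.11). The 2 that fell in Clcn1-null were Hsph1, a large chaperone, with -2.37 (SE 0.26), and Dnajb1, a cofactor of Hsp70, with -1.42 (SE 0.22), and neither was called in line 20b. A second probe set of Dnajb1 read -0.35 in Clcn1-null, not called. Without FVB wild-type mice 1 and 2, 3 of the 27 rose in line 20b.

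Glycolysis and glycogen genes had 3 higher and 10 lower of 31 in line 20b and 1 higher and 3 lower in Clcn1-null. The phosphorylase kinase subunits Phka1 and Phkb changed by -0.60 (SE 0.06) and -0.43 (SE 0.07) in line 20b and by -1.86 (SE 0.15) and -1.12 (SE 0.14) in Clcn1-null. Pgm1, phosphoglucomutase, changed by -0.32 (SE 0.05) and -1.20 (SE 0.19), and Gys1, muscle glycogen synthase, rose by 0.72 (SE 0.06) and 1.00 (SE 0.13), with a second probe set at 0.74, called, and 0.30, not called. All 4 genes had groups apart in both experiments, with limma adjusted p-values between 8.24e-06 and 0.032. Pfkfb3, which makes the activator of phosphofructokinase, fell by 2.85 (SE 0.15) in line 20b, and its value of -2.89 (SE 0.67) in Clcn1-null was not called (limma adjusted p = 0.0805).

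Dystrophin complex and membrane repair genes had 10 higher and 2 lower of 21 in line 20b and 1 higher, the water channel Aqp4 by 1.33 (SE 0.19), in Clcn1-null. The 2 other probe sets of Aqp4, at 1.47 and -0.05, were not called there, and the first was called in line 20b (0.71; limma adjusted p = 0.0498). Their medians were 0.37 and 0.31. Sntb1, a syntrophin, rose by 3.33 (SE 0.59) in line 20b and read 1.10 (SE 0.78) in Clcn1-null, and 1 of its 4 other probe sets read 0.12 and -0.04, neither called. Extracellular matrix genes had 2 higher and 2 lower of 26 in line 20b and 3 higher in Clcn1-null, and the proteoglycan Bgn and the gelatinase Mmp2 rose in both, by 0.68 (SE 0.14) and 0.53 (SE 0.15) and by 1.53 (SE 0.23) and 1.03 (SE 0.18). A second probe set of Mmp2 read 0.38, not called, and 1.42, called. The line 20b call of Mmp2 was lost without FVB wild-type mice 1 and 2 (limma adjusted p = 0.0602).

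Splicing regulators had 1 higher and 4 lower of 25 in line 20b and 2 lower in Clcn1-null. Rbfox1, a splicing factor of muscle and neurons, ran from 14.36 to 14.55 (median 14.48) in line 20b against 15.22 to 15.56 (median 15.32), and was 12.50, 12.21 and 11.87 in Clcn1-null against 13.53, 13.62 and 13.74. The groups stood apart, and it fell by 0.87 (SE 0.06; limma adjusted p = 7.87e-07) and by 1.44 (SE 0.18; limma adjusted p = 0.0177). Of its 3 other probe sets, 1 was called lower in both and the others read -0.83 and -0.92 in Clcn1-null, not called. Celf2, of the CELF family, fell by 0.82 (SE 0.06; limma adjusted p = 1.89e-06) and by 0.89 (SE 0.13; limma adjusted p = 0.0284). None of its 4 other probe sets was called in Clcn1-null (limma adjusted p from 0.1 to 0.652), and 2 of them read 0.02 and 0 in line 20b. These are gene levels, and the probe sets used do not measure splicing.

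Growth control genes had 1 higher and 6 lower of 22 in line 20b and 2 higher and 2 lower in Clcn1-null. Smad3, a transducer of TGF-beta signals, changed by -1.17 (SE 0.09) and -0.94 (SE 0.17), both called, while its second probe set gave -1.20, called, and -0.30, not called. Igf1 fell by 1.93 (SE 0.35; limma adjusted p = 0.00209) in line 20b and read 0.60 (SE 0.27) in Clcn1-null, and the effects differed (limma adjusted p = 0.00146). Polyamine genes had 2 higher and 3 lower of 10 in line 20b and 2 lower in Clcn1-null, Smox and Mtap, which recycles the by-product of polyamine synthesis, and both fell in both models, as did 2 of the 3 other probe sets of Mtap, while the other was called in line 20b (-1.12) and not in Clcn1-null (-0.32). Among 20 genes of amino acid stress, 1 rose and 6 fell in line 20b and 2 fell in Clcn1-null. The amino acid transporter Slc38a4 fell in both, with changes of -0.59 (SE 0.12; limma adjusted p = 0.00534) and -2.38 (SE 0.14; limma adjusted p = 0.0035). Its second probe set was also called lower in both, at -2.66 (SE 0.33) and -3.96 (SE 0.15). Oxidative phosphorylation genes had 4 higher and 3 lower of 45 in line 20b and 2 higher in Clcn1-null. Atrophy genes had 2 higher and 3 lower of 22 and 2 higher, and clock genes 1 higher and 2 lower of 19 and none called (3 at an unadjusted limma p under 0.05). Skeletal muscle identity genes had 4 of 12 lower in line 20b and 1, Casq1, lower in both.

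**Figure D5:**
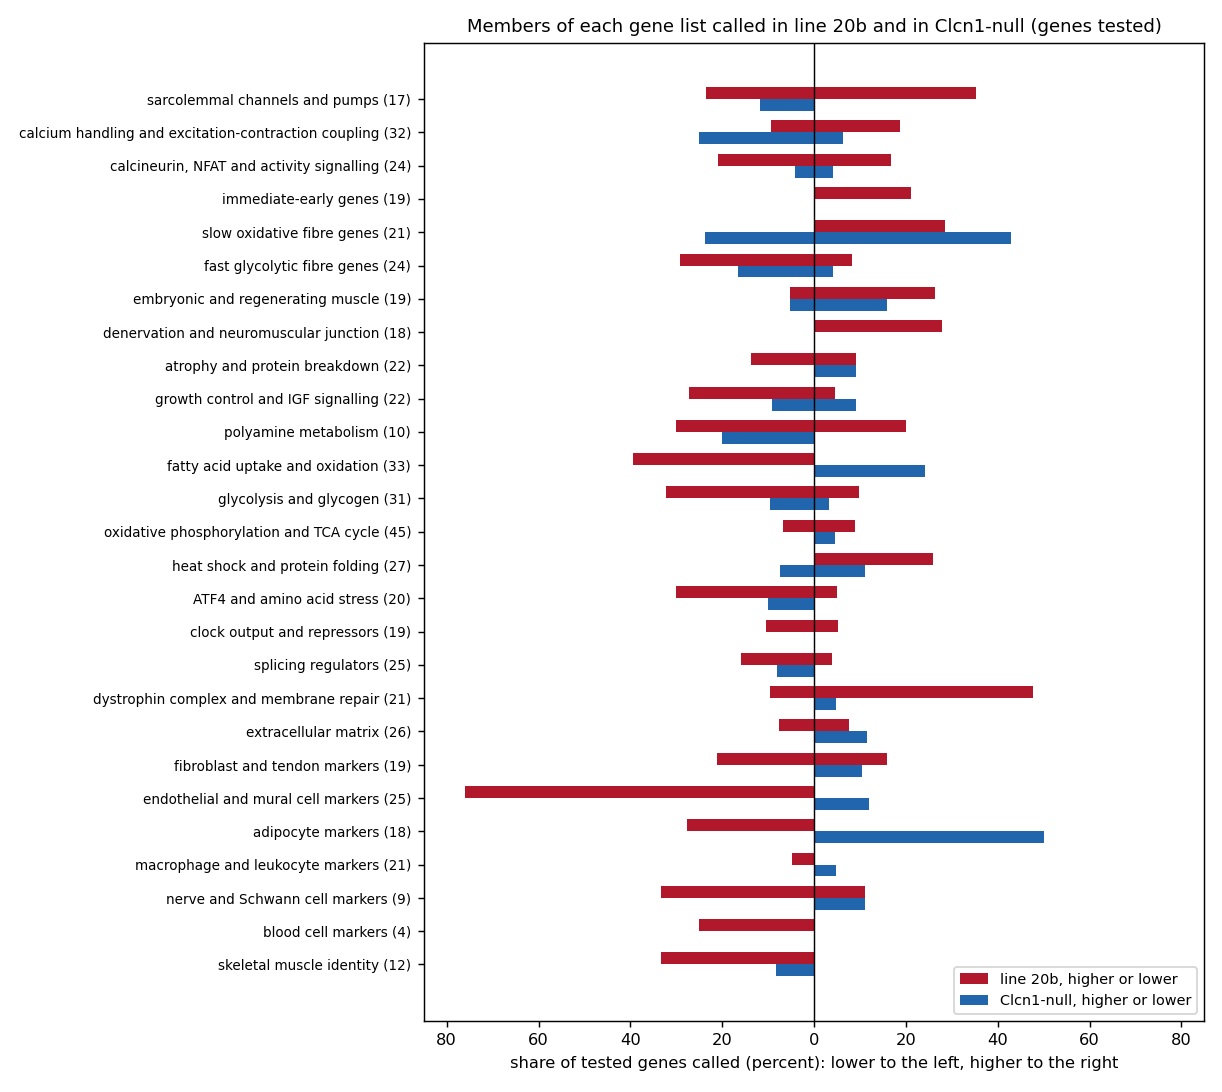
Share of the tested genes of each list that was called (horizontal axis, percent), higher to the right and lower to the left, with 1 bar for line 20b and 1 for Clcn1-null and the number tested beside each name. The bars of the 2 models point the opposite way for adipocyte markers, endothelial and mural cell markers and fatty acid genes.

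Promoters are shown for Hspb1 and Lmcd1, which rose in both models, and for Actc1, which fell in both, because each holds letters of a muscle or heat shock motif. Sequences are from RefSeq (GRCm38.p6), 5′ to 3′ on the strand of the gene and ending just before its start. Capitals mark heat shock element letters (GAANNTTC) in Hspb1, at 117 and 97 bases before the start, and letters of the CArG box, the serum response factor motif, in Lmcd1 and Actc1, at 215 and 47 bases before the start. The Hspb1 sequence lies at chr5:135887789-135887918 (+), that of Lmcd1 at chr6:112273528-112273757 (+) and that of Actc1 at chr2:114052876-114052975 (-).
Hspb1: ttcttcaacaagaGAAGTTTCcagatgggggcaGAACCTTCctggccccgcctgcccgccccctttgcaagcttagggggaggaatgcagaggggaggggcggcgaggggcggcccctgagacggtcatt
Lmcd1: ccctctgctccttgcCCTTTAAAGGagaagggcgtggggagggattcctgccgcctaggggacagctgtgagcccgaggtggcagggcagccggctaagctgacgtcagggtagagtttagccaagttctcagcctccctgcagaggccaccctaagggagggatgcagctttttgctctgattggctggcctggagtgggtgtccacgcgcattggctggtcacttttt
Actc1: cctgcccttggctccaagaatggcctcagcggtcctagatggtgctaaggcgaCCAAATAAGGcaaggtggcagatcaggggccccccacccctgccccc

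Over the 250 bases before the start, searched on both strands, 4 of the 41 genes higher in both with a promoter entry held the heat shock letters (9.76%), against 4.96% of 9645 tested genes and 6.78% of all 27025 promoters in the RefSeq table. The E box letters CANNTG were in 30 of 41 (73.2%), against 58.3% of tested genes and 66.0% of the table, and TATAAA was in 6 of 41 (14.6%), against 7.23% and 13.0%. The CArG box was in 1 of 41 (2.44%), against 1.14% and 1.4%, and the MEF2 site in 2 of 41 (4.88%), against 1.75% and 3.01%. Of 120 genes lower in both with an entry, 3 held the heat shock letters (2.5%), 70 the E box (58.3%), 5 TATAAA (4.17%), 2 the CArG box (1.67%) and none the MEF2 site. E box matches can overlap other motifs, a match is a description of letters and not of a bound site, and the shares were not tested.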

How the data were processed

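Quadriceps RNA of each mouse was extracted with Tri-Reagent, biotin-labelled and hybridised to a 430A and a 430B array, per the labels' protocols. The deposited values are linear intensities per probe set that the authors made with GCRMA (named in the submitters' processing notes, version not given in the sources used here). Here they were turned into log2. A probe set was tested where its log2 level was at least 5 in at least 6 of the 12 mice of experiment 1, or 3 of the 6 of experiment 2. The 2 comparisons each had a linear model of their own (limma 3.58.1 under R 4.3.3, lmFit, then eBayes with trend), with Benjamini-Hochberg adjustment across the probe sets that entered it. The difference of effects was tested in 1 model of the 4 groups as planned, and with each experiment's own spread. The second test took the changes and SEs of the 2 limma fits into a Welch t test, with Benjamini-Hochberg adjustment. The report uses the second for its statements on genes and lists, because spreads were unequal. Where every mouse of a group lay under the floor, a change is given as a bound. The number of arrays limits precision. The scripts were tested on simulated data, in which each experiment had its own spread. In those data the model with 1 spread made many false calls of a difference.

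A gene took its probe set of highest mean signal. By rule, the text names Clcn1 and Acta1, and up to 12 genes in each same-direction class and 10 in each opposite class by the smaller of the 2 absolute changes. It also names the 8 largest differences of each sign among genes called in the model with 1 spread. From each list it names up to 4 called members plus those called in both. Names that are only clone identifiers were passed over. The rule names 151 genes, of which the text describes 102. The other 49, from the lists but for 1, are not reported here one by one. Markers said to be under the floor were named after their values were seen. The members and the 27 gene lists were chosen with earlier results of these data known. Line 41 was used in 1 alternative only. Same replicate numbers were not treated as pairs of mice.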

Additional observations from a re-analysis of the deposited data

Results flagged for a closer look

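For the 102 genes described above, 204 groups of 6 mice were looked at for a mouse far from its group by Dixon's ratio of gap to range, which chance exceeds in about 1 in 20 groups. Such a mouse was found in 15 groups, and the groups of 3 mice were not tested. Line 20b mouse 3 was the one in 6 of them. It was the highest for Lmcd1 (14.45, the next at 13.34), for Mybph (13.92, the next at 13.14) and for Hspb1 (15.20, the next at 14.24). It was the lowest for Col24a1 (6.71, the next at 8.07), for Cyp2e1 (9.80, the next at 11.77) and for Actn3 (15.82, the next at 15.99).

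Line 20b mouse 6 was the lowest for Meg3 (11.32, the next at 12.34), for Gdap1 (6.67, the next at 7.85) and for Mss51 (13.91, the next at 14.34). Line 20b mouse 4 was the lowest for Lmod2 (14.55, the next at 14.91), line 20b mouse 1 for Dkk3 (7.55, the next at 8.52) and line 20b mouse 2 for Camk2a (10.63, the next at 11.05). FVB wild-type mouse 3 was the highest for Lmcd1 (13.25, the next at 11.77) and for Hspb6 (14.96, the next at 14.44). FVB wild-type mouse 1 was the highest for Adgrg2 (7.09, the next at 6.40).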

How the results depend on the processing

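The numbers of probe sets called in line 20b, called in Clcn1-null, higher in both, lower in both, higher in line 20b and lower in Clcn1-null, lower in line 20b and higher in Clcn1-null, and with effects that differ were, in that order, 4404, 1091, 79, 282, 60, 41 and 3531. At an adjusted p under 0.01 they were 2340, 154, 12, 44, 4, 1 and 1720. With a change of at least 2-fold required as well they were 556, 777, 23, 54, 14, 13 and 1573. With 1 probe set per gene and p-values adjusted over genes, 2467 were called in line 20b, 704 in Clcn1-null, 173 lower in both and 2187 with effects that differ. These counts of effects that differ, and those of the settings below, are from the model with 1 spread. With each experiment's own spread, 1941 effects differed, and that count was not repeated under other settings.

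Of the other settings, an adjusted p under 0.10 gave 2002 in Clcn1-null and 164, 478, 117 and 118 in the 4 shared classes. No filter on low signal gave 610 and 50, 169, 29 and 19. The log2 of the intensity plus 32 gave 532 and 46, 145, 28 and 15. Array weights, whose estimation stopped before its set tolerance, gave 7393 and 499, 895, 248 and 287, and turned the majority of Clcn1-null calls from lower to higher (52.6% higher against 40.8%). Quantile normalisation gave 119 higher in both, and turned the majority of line 20b calls from lower to higher (52.2% higher against 42.5%). A floor at log2 7 gave 62 lower in line 20b and higher in Clcn1-null. Leaving out 1 mouse at a time gave 34 to 2286 in Clcn1-null, 3 to 192 higher in both and 18 to 454 lower in both. It gave 0 to 96 and 0 to 101 in the opposite classes, and 2632 to 4558 with effects that differ. In line 20b, leaving out a mouse of experiment 1 gave 3733 to 4370, always fewer than the 4404 over all mice. Mice of experiment 2 do not enter that fit.

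Same replicate numbers correlated at -0.155 to 0.208 in experiment 1 and -0.156 to 0.0994 in experiment 2. They were not treated as pairs, though such weak correlations cannot show that the mice were unpaired. The fit with the replicate number as a block called 110 probe sets in Clcn1-null, and 10, 42, 3 and 2 in the 4 shared classes. Not every mouse correlated best with its own number. The correlation of the effects stayed between 0.139 and 0.202 under all settings. Among the named genes, 1 changed direction with a call before or after the change: Atp2a2 in line 20b went from 0.04 to -0.69 without FVB wild-type mice 1 and 2. Sign changes of values called in neither setting were not counted. For named genes that were called, 5853 gene-by-setting values kept direction and call and 743 lost the call. Many of the 5853 could not change, because a mouse left out of 1 experiment does not enter the fit of the other. The 5853 therefore does not measure how stable the calls were. The cause of these shifts was not tested, except that fewer mice or genes entered some fits.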

Other observations

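Some genes near Clcn1 were called in Clcn1-null, at a share near that elsewhere. Within 100 genes on either side of Clcn1 in the annotation, 6 of 89 tested genes were called in Clcn1-null (6.74%), against 612 of 11898 elsewhere (5.14%). Within 200 genes, 11 of 197 were called (5.58%), against 607 of 11790 elsewhere (5.15%). Cntnap2 lies 33 genes from Clcn1, Snx10 lies 92 genes away and Lmod2 lies 151 genes away. Zfp467, a zinc finger gene named here after its values were seen, lies 51 genes away and fell in both models, decreased by 1.36 in line 20b and by 1.95 in Clcn1-null on the log2 scale.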
